A study of Mus musculus with 12 samples.

Results

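The genes of sterol and fatty acid synthesis were followed in murine dendritic cells exposed to polymer nanoparticles. They form a list of 32 genes, chosen by their known place in the pathway: 7 enzymes of the mevalonate route, 11 enzymes from squalene to cholesterol, 6 regulators and 8 enzymes of fatty acid synthesis. Probes were assigned by their RefSeq accession through the gene table of mouse assembly GRCm38.p6. Of the 32 genes, 31 had such a probe, and Idi1, which isomerises the product of mevalonate decarboxylation, had none and is not analysed here. All 31 passed the filter on dim probes and stood among 18403 genes tested.

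Cells build cholesterol from acetyl-CoA, first through mevalonate to farnesyl diphosphate, then through squalene and lanosterol. The same acetyl-CoA feeds fatty acid synthesis, in which chains are made, elongated and desaturated. The sterol regulatory element-binding proteins, encoded by Srebf1 and Srebf2, activate most of these genes. When membranes are rich in sterol, Insig proteins hold the SCAP carrier and the bound factor in the endoplasmic reticulum. When sterol is low, SCAP carries the factor to the Golgi, where proteases release its active part. In macrophages and dendritic cells this pathway is known to shift with signals through Toll-like receptors and with interferons.

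The cells came from bone marrow of female mice aged 6 to 8 weeks. They were grown with GM-CSF at 20 ng/ml, and the non-adherent and loosely adherent cells were taken on day 7 as immature dendritic cells. They were then held with 300 µg/ml of nanoparticles of poly(γ-glutamic acid) for 6, 12 or 24 h, and a set labelled 0 h stood for the start. Each of the 4 times had 3 samples on 1-colour arrays with 1 sample per array. All groups share the GM-CSF culture and the day of harvest. The samples hold no culture left without particles for 6, 12 or 24 h, so exposure cannot be told apart from time in the dish, and in bulk samples fewer cells of a type and less RNA per cell cannot be told apart either.

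Values came from the scanner files and from the authors' deposited value table, and both are given throughout. A scanner level is the log2 of the processed spot intensity minus the log2 75th percentile of its array, so 0 marks that percentile. The value table holds ratios on a linear scale, and in each probe shown the median of the 3 values at 0 h is 1. The sources differ most at the last time. Over all genes the log2 changes against 0 h correlated between the sources at 0.73 at 6 h, 0.54 at 12 h and -0.074 at 24 h. Over all genes the mean correlation of the scanner arrays of 24 h was 0.991 with the 0 h arrays and 0.911 with the 12 h arrays. For the log2 ratios of the table columns of 24 h it was 0.896 against 12 h and 0.031 against 0 h. Ratios at 0 h lie near 1 in each probe, so a correlation with those columns cannot show likeness to 0 h. It was also near 0 for the columns of 6 h (0.0319) and 12 h (0.03). Which source carries the cells of 24 h was not tested, so each result at 24 h is given for both sources. The comparisons among 0, 6 and 12 h called the same numbers of genes when all samples labelled 24 h were left out (18 and 11 in the scanner values and 12 and 12 in the value table, at 6 and 12 h against 0 h).

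The share of spots well above background was 50.9% to 59.6% per array. The arrays lay on 3 slides, with the 3 arrays at 0 h and 1 at 6 h on the first, then on the second 2 at 6 h and 2 at 12 h, and on the third 1 at 12 h and the 3 at 24 h. Of the fixed dendritic cell and macrophage markers, 7 of 8 had a probe, and all 7 were well above background at 0 and 24 h, among them Itgax and H2-Ab1. At 6 and 12 h neither Flt3 nor Cd209a was above background on all arrays of the group. Mean scanner levels at 0, 6 and 12 h were -3.45, -3.33 and -4.38 for Flt3, and -2.23, -5.42 and -5.49 for Cd209a. In the table the 2 went opposite ways. Flt3 had ratios of 1.11, 0.435 and 1 at 0 h, 3.05, 2.51 and 2.69 at 6 h, and 14.4, 16.1 and 18.7 at 24 h. The ratios of Cd209a at 6, 12 and 24 h were at most 0.0283. Neutrophil markers were also present, 7 of 7 with a probe at every time, with a summed linear level of 282 to 326 at 6 h, 335 to 383 at 12 h and 294 to 302 at 24 h, against 293 to 301 at 0 h (in units of the array's 75th percentile). That sum rests mainly on the brightest probes, among them S100a9, which was saturated. Of the single neutrophil markers Elane and Ltf were called lower at 6 h in the scanner values, and none at 12 h. The table called 3 of the 7 lower at 6 h, 4 at 12 h and 7 at 24 h. Of all genes the scanner values called 15.9% lower at 6 h and 16.9% at 12 h. In the table the share of all genes called lower was 11.8% at 6 h, 12.1% at 12 h and 13% at 24 h. The part of the neutrophil markers in the results below was not tested. Of the other markers with a probe, 3 of 4 of mast cells or basophils, 2 of 3 of T cells and 2 of 3 of B cells were above background at every time. For fibroblasts it was 1 of 3 at 0 and 24 h and 2 of 3 at 6 and 12 h. The summed level of each of these lists was at most 2.19, and their part was not tested either. The erythroid and adipocyte markers with a probe were not above background in any group.

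In the scanner values most sterol enzymes rose at 6 h, and most fatty acid enzymes fell at 12 h. Calls required both a minimum change of 2-fold and an adjusted p below 0.05, with the adjustment made across the whole array. Changes of single genes are given on the log2 scale with ± the SE of the limma fit, with 3 samples at each time. At 6 h against 0 h 15 of the 31 genes were called higher and 3 lower, while 10.2% of all genes were called higher and 15.9% lower (26.1% in either direction). The median change over the 31 genes was 0.88 on the log2 scale, against -0.06 over all genes. At 12 h against 0 h 2 were called higher and 9 lower, against 13.7% and 16.9% of all genes (30.6% in either direction), with medians of -0.17 over the list and -0.03 over all genes. At 24 h against 0 h limma called 0 of 31 genes, where 0.837% of all genes were called (0.696% higher and 0.141% lower), and at an unadjusted p under 0.05 there were 4 higher and 1 lower.

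In the value table most sterol enzymes rose at 6 h as well, and were also called higher at 12 and 24 h. At 6 h 11 of the 31 genes were called higher and 1 lower, against 13.2% and 11.8% of all genes (25% in either direction). At 12 h 12 were called higher and 0 lower, against 15.7% and 12.1% of all genes (27.8% in either direction). At 24 h 12 were again called higher and 0 lower, against 13.3% and 13% (26.3% in either direction). The median of all genes in the table lay at 0.14, 0.22 and 0.12 on the log2 scale at 6, 12 and 24 h, and the list's medians of 0.39, 0.52 and 0.72 stand relative to that shift. With each column centred on its median, the numbers called were 10, 9 and 6 at 6, 12 and 24 h, of which 8, 9 and 6 were higher, against 24.8%, 26.8% and 26.1% of all genes. After quantile normalization of the columns 6, 4 and 3 of the 31 were called, against 14.7%, 14.5% and 14.3% of all genes. At 12 and 24 h the list's share was then no higher than that of all genes. That step gives the columns at 0 h, whose ratios lie near 1, the same spread as the later columns. It lowered the calls over all genes too, from 27.8% to 14.5% at 12 h and from 26.3% to 14.3% at 24 h. The list went from 12 to 4 of 31 at 12 h and from 12 to 3 at 24 h. What part of that loss comes from the setting was not tested.

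**Figure D1:**
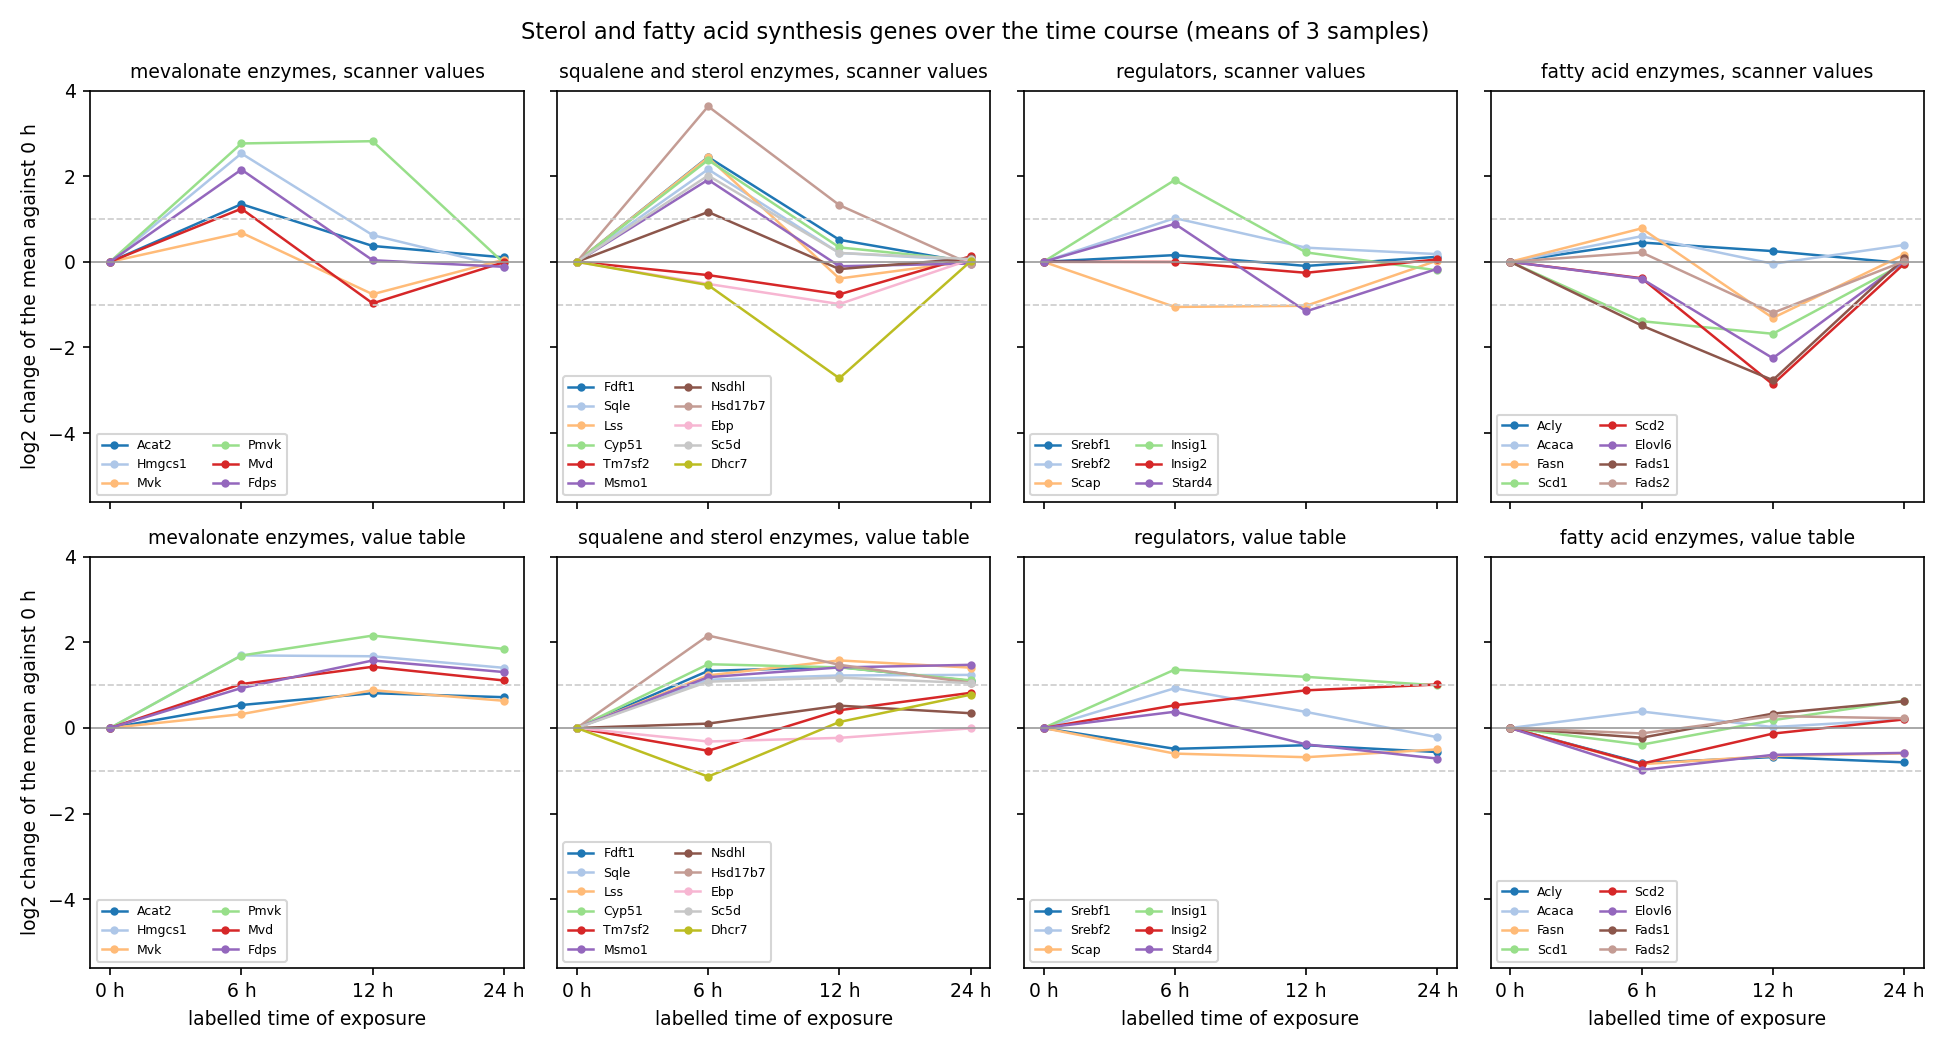
Mean log2 change against 0 h (y axis) at 0, 6, 12 and 24 h (x axis, times evenly spaced) for each of the 31 genes, in columns by role, with scanner values above and the value table below. Each line is a gene and each point a mean of 3 samples, and dashed lines mark a 2-fold change. In the scanner values most sterol enzymes peak at 6 h and 6 of the 8 fatty acid enzymes were called lower at 12 h, with all lines between -0.20 and 0.39 at 24 h, whereas in the value table most sterol enzymes stay above 0 at 24 h.

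The mevalonate enzymes were higher at 6 h in both sources. By the scanner 5 of 6 rose, against 10.2% of all genes, with a median log2 change of 1.75. The value table had 3 of 6 higher, against 13.2% of all genes, with a median of 0.98. At 12 h the scanner values called 1 higher, near the 13.7% of all genes, and the table had 4 of 6 higher, against 15.7%. Hmgcs1, the synthase that makes HMG-CoA, had scanner levels of 2.85, 2.96 and 2.92 at 0 h, 5.45, 5.42 and 5.45 at 6 h, 3.49, 3.65 and 3.46 at 12 h, and 2.76, 2.78 and 2.83 at 24 h. Its table ratios were 1.04, 0.937 and 1 at 0 h, 3.24, 3.27 and 3.12 at 6 h, 3.19, 3.24 and 3.07 at 12 h, and 2.52, 2.64 and 2.72 at 24 h. The 3 arrays at 6 h stood above all others, and those at 12 h lay between them and 0 h, while in the table every column at 6, 12 and 24 h lay far above those at 0 h. Hmgcs1 rose at 6 h by 2.53 ± 0.055 (SE) on the log2 scale in the scanner values (adjusted p = 9.22e-11) and by 1.70 ± 0.053 in the table (adjusted p = 1.19e-09).

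Pmvk, which phosphorylates mevalonate phosphate, was high for longer. Its scanner levels were 3.50, 3.46 and 3.54 at 0 h, 6.36, 6.12 and 6.31 at 6 h, 6.38, 6.29 and 6.28 at 12 h, and 3.48, 3.44 and 3.49 at 24 h. The table gave ratios of 1, 0.925 and 1.11 at 0 h, 3.41, 3.25 and 3.13 at 6 h, 4.56, 4.66 and 4.29 at 12 h, and 3.56, 3.54 and 3.79 at 24 h. The 6 arrays at 6 and 12 h did not overlap with the 6 at 0 and 24 h. The scanner rise was 2.76 ± 0.061 at 6 h and 2.82 ± 0.061 at 12 h, and Pmvk and Hsd17b7 were the only genes of the list called higher at both times in that source. In the table Pmvk rose by 1.69 ± 0.071, 2.16 ± 0.071 and 1.85 ± 0.071 at 6, 12 and 24 h.

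Farnesyl diphosphate, the branch point to sterols and prenyl groups, is made by Fdps. Scanner levels of Fdps were 2.82, 2.87 and 2.86 at 0 h, 5.10, 4.87 and 5.04 at 6 h, 2.92, 2.85 and 2.89 at 12 h, and 2.70, 2.74 and 2.76 at 24 h. Ratios of 1, 0.986 and 1.13 at 0 h, 2.16, 1.89 and 1.9 at 6 h, 3.21, 3.23 and 2.85 at 12 h, and 2.57, 2.55 and 2.57 at 24 h stood in the table. The scanner rise at 6 h was 2.16 ± 0.058, and at 12 h the arrays overlapped with those at 0 h. In the table the change was 0.93 ± 0.077 at 6 h, just under 2-fold and so not called, and Fdps rose by 1.58 ± 0.077 at 12 h and 1.31 ± 0.077 at 24 h.

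Mvd, which decarboxylates mevalonate diphosphate, had scanner levels of 2.57, 2.57 and 2.55 at 0 h, 3.86, 3.72 and 3.83 at 6 h, 1.62, 1.56 and 1.60 at 12 h, and 2.60, 2.53 and 2.53 at 24 h. The ratios of Mvd in the table were 1, 0.946 and 1.07 at 0 h, 2.18, 1.97 and 1.99 at 6 h, 2.48, 2.88 and 2.77 at 12 h, and 2.18, 2.12 and 2.2 at 24 h. The scanner arrays at 6 h were highest and those at 12 h lowest, with no overlap. Mvd rose by 1.24 ± 0.045 at 6 h, and its change at 12 h, -0.97 ± 0.045, stayed just under 2-fold. In the table it rose by 1.03 ± 0.071 at 6 h, a call that is lost without 0 h replicate 2 (0.99) or without 6 h replicate 1 (0.98), and by 1.43 ± 0.071 at 12 h.

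The cytosolic thiolase Acat2, which joins acetyl-CoA units and is distinct from the cholesterol esterifying enzyme of a like name, had the most uneven replicates of the group. It gave scanner levels of -1.71, -1.53 and -1.77 at 0 h, -0.59, -0.58 and 0.20 at 6 h, -1.14, -1.40 and -1.36 at 12 h, and -1.44, -1.70 and -1.56 at 24 h. Its table ratios were 1, 0.901 and 1.07 at 0 h, 1.3, 1.48 and 1.53 at 6 h, 1.93, 1.77 and 1.53 at 12 h, and 1.63, 1.64 and 1.61 at 24 h. At 6 h replicate 3 stood well above the other two arrays, and all 3 were above those at 0 h. Acat2 rose by 1.35 ± 0.19 in the scanner values, and by the table its change was 0.54 ± 0.097, not called. Mevalonate kinase, encoded by Mvk, was not called against 0 h by the probe used in either source. Its change at 6 h was 0.68 ± 0.056 in the scanner values and 0.32 ± 0.07 in the table, while a second Mvk probe passed in the scanner values at 1.02. That second probe also passed in the table at 12 h (1.15), where the probe used gave 0.88 ± 0.07.

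Most enzymes from squalene to cholesterol were also higher at 6 h. At that time 8 of 11 rose in the scanner values, with a median log2 change of 2.01, and 7 of 11 rose in the table, with a median of 1.13. At 12 h the scanner values called 1 higher and 1 lower, and the table had 7 higher. Hsd17b7, a reductase of the complex that strips methyl groups from the sterol ring, had the largest change of the list. Scanner levels of Hsd17b7 were -0.26, -0.20 and -0.18 at 0 h, 3.43, 3.33 and 3.49 at 6 h, 1.15, 1.10 and 1.08 at 12 h, and -0.27, -0.26 and -0.27 at 24 h. In the table it had ratios of 1, 0.966 and 1 at 0 h, 4.56, 4.75 and 3.97 at 6 h, 2.86, 2.94 and 2.47 at 12 h, and 2.01, 1.98 and 2.18 at 24 h. Arrays at 6 h, at 12 h and at 0 h fell into 3 separate ranges, and those at 24 h lay at the lower end of 0 h. Hsd17b7 rose 12.4-fold at 6 h (3.63 ± 0.046 on the log2 scale, adjusted p = 5.69e-12) and 2.5-fold at 12 h in the scanner values. By the table it rose 4.46-fold at 6 h, 2.78-fold at 12 h and 2.07-fold at 24 h.

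Fdft1, the squalene synthase, is the first enzyme committed to sterols. It had scanner levels of 0.99, 0.83 and 0.89 at 0 h, 3.32, 3.34 and 3.39 at 6 h, 1.38, 1.55 and 1.32 at 12 h, and 0.88, 0.90 and 0.88 at 24 h. The table listed ratios of 0.982, 1.03 and 1 at 0 h, 2.61, 2.54 and 2.44 at 6 h, 2.7, 2.68 and 2.7 at 12 h, and 2.13, 2.13 and 2.19 at 24 h. At 6 h Fdft1 rose by 2.44 ± 0.062 in the scanner values and by 1.33 ± 0.042 in the table. Squalene is then oxidised by Sqle, a rate-controlling step. Sqle had scanner levels of 1.98, 2.02 and 2.01 at 0 h, 4.15, 4.12 and 4.22 at 6 h, 2.20, 2.19 and 2.24 at 12 h, and 2.10, 2.01 and 2.01 at 24 h. Its ratios in the table were 1, 0.941 and 1.06 at 0 h, 2.34, 2.11 and 2.11 at 6 h, 2.41, 2.38 and 2.23 at 12 h, and 2.38, 2.36 and 2.34 at 24 h. Sqle rose by 2.16 ± 0.041 and 1.13 ± 0.061 at 6 h in the scanner values and the table, and for both genes the scanner arrays at 12 h were again within 2-fold of 0 h.

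Lss folds squalene epoxide into lanosterol. The levels of Lss in the scanner files were -1.11, -0.98 and -1.05 at 0 h, 1.38, 1.30 and 1.49 at 6 h, -1.47, -1.51 and -1.33 at 12 h, and -1.12, -0.95 and -1.02 at 24 h. Its table ratios were 1.02, 0.93 and 1 at 0 h, 2.37, 2.32 and 2.22 at 6 h, 2.92, 2.97 and 2.91 at 12 h, and 2.43, 2.68 and 2.73 at 24 h. The 12 h scanner arrays lay below all those at 0 h, whereas in the table the 12 h columns were the highest. The change at 12 h was -0.39 ± 0.071 in the scanner values, not called, against a rise of 1.58 ± 0.058 in the table. Cyp51 removes a methyl group from lanosterol, and its scanner levels were 0.22, 0.22 and 0.23 at 0 h, 2.61, 2.46 and 2.73 at 6 h, 0.53, 0.54 and 0.61 at 12 h, and 0.22, 0.20 and 0.33 at 24 h. The table held ratios of 1, 0.965 and 1.04 at 0 h, 2.86, 2.94 and 2.64 at 6 h, 2.69, 2.66 and 2.66 at 12 h, and 2.14, 2.14 and 2.21 at 24 h. Cyp51 rose at 6 h by 2.37 ± 0.066 in the scanner values and by 1.49 ± 0.052 in the table, and its table columns at 24 h were lower than those at 6 and 12 h.

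Msmo1 oxidises the sterol methyl groups that Nsdhl and Hsd17b7 then help to remove. Scanner levels of Msmo1 were 3.90, 3.85 and 3.89 at 0 h, 5.89, 5.69 and 5.81 at 6 h, 3.80, 3.71 and 3.82 at 12 h, and 3.80, 3.87 and 3.85 at 24 h. Ratios of Msmo1 in the table were 1, 0.979 and 1.13 at 0 h, 2.49, 2.36 and 2.22 at 6 h, 2.76, 2.92 and 2.6 at 12 h, and 2.88, 2.77 and 2.98 at 24 h. Msmo1 rose by 1.92 ± 0.055 at 6 h in the scanner values, and in the table it rose by 1.19 ± 0.072 at 6 h and by 1.48 ± 0.072 at 24 h. Nsdhl, the dehydrogenase of that complex, had scanner levels of -0.20, -0.22 and -0.27 at 0 h, 0.93, 0.89 and 0.98 at 6 h, -0.55, -0.18 and -0.47 at 12 h, and -0.15, -0.14 and -0.16 at 24 h. It had table ratios of 1.11, 1 and 0.966 at 0 h, 1.14, 1.13 and 1.03 at 6 h, 1.5, 1.51 and 1.4 at 12 h, and 1.29, 1.31 and 1.3 at 24 h. Nsdhl rose by 1.16 ± 0.081 in the scanner values at 6 h, while by the table the change was 0.11 ± 0.064 and the highest column at 0 h overlapped with those at 6 h.

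Sc5d, a sterol desaturase near the end of the route, had scanner levels of 2.29, 2.27 and 2.30 at 0 h, 4.28, 4.28 and 4.34 at 6 h, 2.55, 2.50 and 2.43 at 12 h, and 2.36, 2.35 and 2.34 at 24 h. Its ratios in the value table were 1, 0.97 and 1.07 at 0 h, 2.24, 2.21 and 1.99 at 6 h, 2.31, 2.36 and 2.2 at 12 h, and 2.12, 2.07 and 2.09 at 24 h. It rose by 2.01 ± 0.039 at 6 h in the scanner values and by 1.08 ± 0.059 in the table, with the 3 later times of the table overlapping or adjoining one another. The reductase Tm7sf2 and the isomerase Ebp were called at no time against 0 h in either source. At 6 h the values of Tm7sf2 were -0.31 ± 0.057 in the scanner values and -0.53 ± 0.069 in the table, and its table change at 24 h was 0.82 ± 0.069. Ebp was lowest at 12 h in the scanner values, with a change of -0.99 ± 0.051 just short of 2-fold.

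Dhcr7, the reductase that completes cholesterol, was not called higher against 0 h at any time in either source, like Tm7sf2 and Ebp. Its scanner levels were 1.75, 1.78 and 1.77 at 0 h, 1.30, 1.18 and 1.19 at 6 h, -0.90, -1.13 and -0.83 at 12 h, and 1.77, 1.78 and 1.79 at 24 h. The table gave Dhcr7 ratios of 0.952, 1 and 1.09 at 0 h, 0.501, 0.443 and 0.441 at 6 h, 1.12, 1.17 and 1.06 at 12 h, and 1.73, 1.72 and 1.76 at 24 h. Scanner arrays at 12 h were far below all others, whereas the lowest table columns were those at 6 h. Dhcr7 fell by 2.72 ± 0.07 on the log2 scale at 12 h in the scanner values (adjusted p = 1.84e-10), and a second probe also passed there at -2.09. In the table it fell at 6 h by 1.13 ± 0.068, where the second probe gave -0.95 and was not called, and the change was 0.14 ± 0.068 at 12 h and 0.78 ± 0.068 at 24 h, neither of them called. At 12 h against 6 h the sources called Dhcr7 in opposite directions, -2.17 in the scanner values and 1.28 in the table, and it was the only gene of the list for which any of the 5 comparisons did so.

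**Figure D2:**
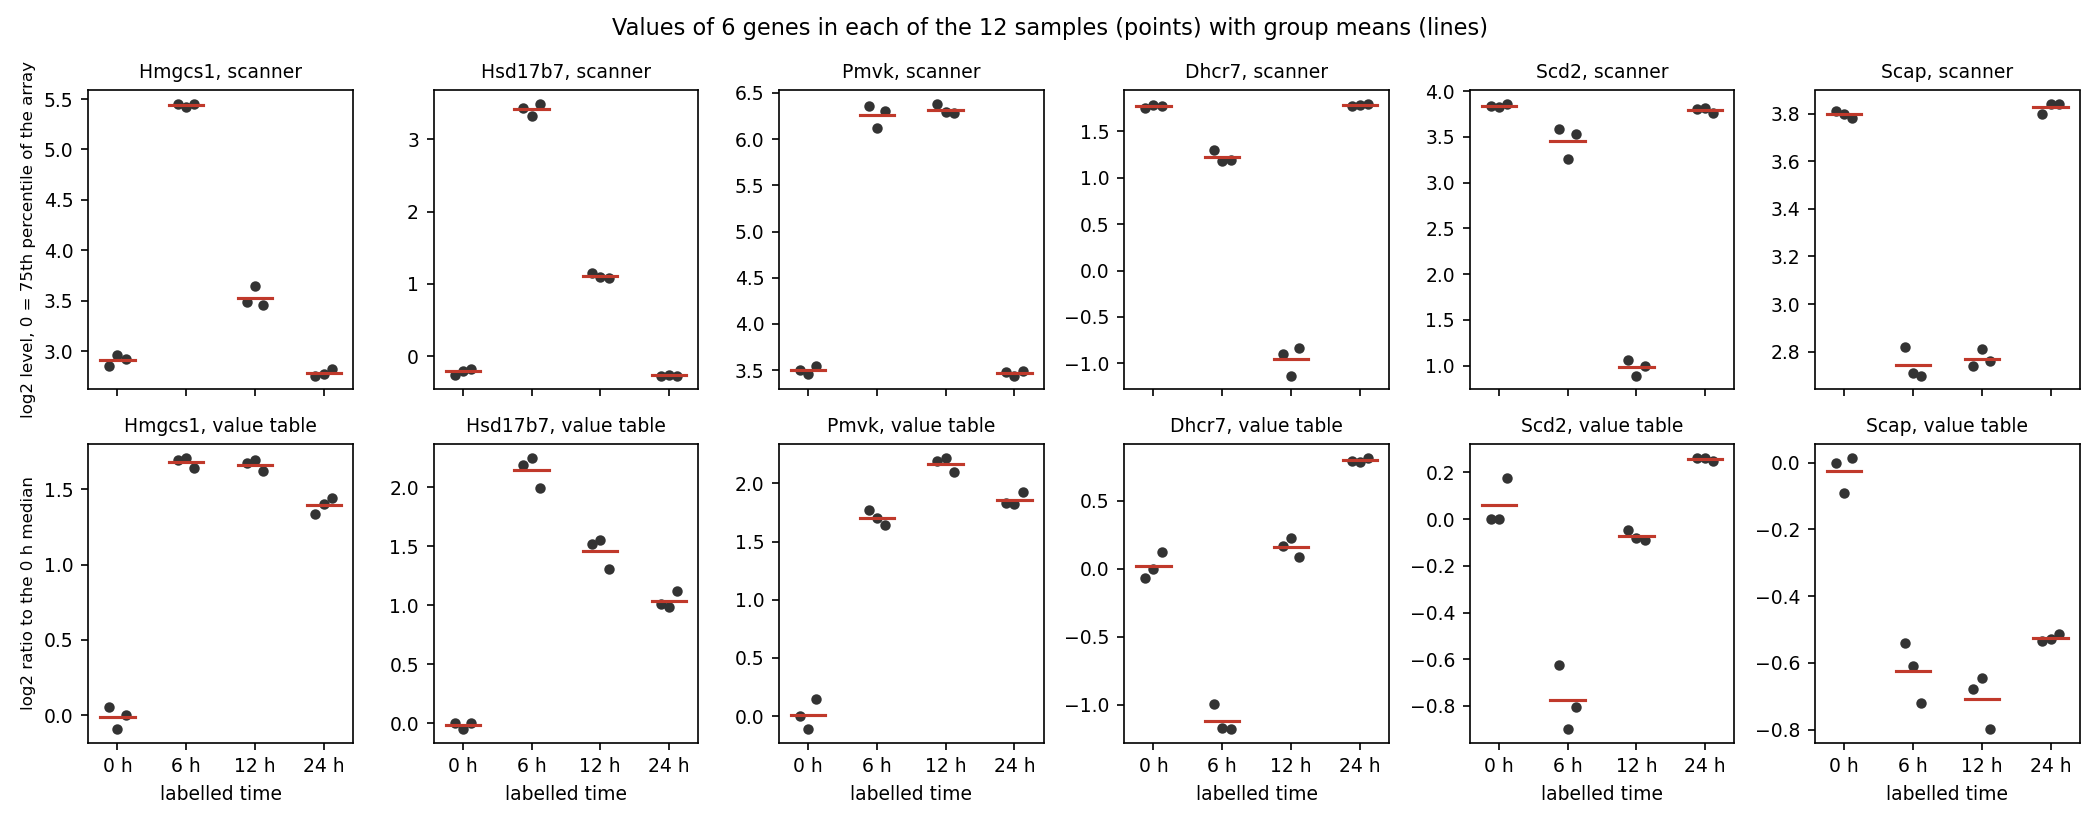
Values of Hmgcs1, Hsd17b7, Pmvk, Dhcr7, Scd2 and Scap in all 12 samples (points) with the mean of each time (lines), by labelled time (x axis). The upper row shows scanner levels (log2, 0 is the 75th percentile of the array) and the lower row log2 ratios of the value table, each panel on its own scale. Scanner levels at 24 h lie close to those at 0 h in each panel, and table ratios of Hmgcs1, Hsd17b7 and Pmvk at 24 h lie above those at 0 h.

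The promoters of the genes with the strongest rise are shown because both motifs searched are known from sterol genes. The sterol regulatory element bound by the Srebf factors was searched as TCACNCCAC and the box bound by nuclear factor Y as CCAAT, on both strands. The windows run from 250 bases before to 50 bases after a RefSeq start in build GRCm38.p6, and 25 of the 32 genes had 1 or more. TCACNCCAC was found in 1.24% of all 32851 promoters, and among the 33 promoters of the list only in that of Hmgcs1, on the plus strand with its first base 137 bases before the start. CCAAT was found in 37.4% of all promoters and in 63.6% of those of the list. By gene, 20 of the 25 held CCAAT, against 41.1% of all 27025 genes with a promoter. Those 20 included 11 of the 12 called higher at 6 h in the scanner values and 8 of the 12 tested genes not called higher. The motifs do not overlap in the promoters printed. The 4 sequences are those of the genes with the largest scanner change at 6 h that had a promoter, given 5′ to 3′ on the gene's strand. Those of Hsd17b7, Pmvk and Lss and the CCAAT search were added after the values were seen, and of the 2 promoters of Pmvk the one with the lower start is shown. Capitals mark TCACCCCAC in Hmgcs1 and CCAAT or its complement ATTGG in all.
Hsd17b7 (chr1:169969156-169969455, minus strand): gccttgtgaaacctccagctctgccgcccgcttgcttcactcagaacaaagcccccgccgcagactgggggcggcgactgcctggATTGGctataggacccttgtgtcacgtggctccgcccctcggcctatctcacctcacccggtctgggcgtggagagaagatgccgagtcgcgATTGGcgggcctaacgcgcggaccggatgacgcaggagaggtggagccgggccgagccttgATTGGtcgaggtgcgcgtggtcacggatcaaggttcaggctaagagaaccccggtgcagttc
Pmvk (chr3:89454291-89454590, plus strand): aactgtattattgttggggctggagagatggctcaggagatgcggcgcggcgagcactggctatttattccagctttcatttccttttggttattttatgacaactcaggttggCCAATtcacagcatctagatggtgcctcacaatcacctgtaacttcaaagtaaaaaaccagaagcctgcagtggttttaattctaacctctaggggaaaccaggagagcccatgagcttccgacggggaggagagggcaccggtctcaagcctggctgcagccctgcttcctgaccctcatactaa
Hmgcs1 (chr13:119690101-119690400, plus strand): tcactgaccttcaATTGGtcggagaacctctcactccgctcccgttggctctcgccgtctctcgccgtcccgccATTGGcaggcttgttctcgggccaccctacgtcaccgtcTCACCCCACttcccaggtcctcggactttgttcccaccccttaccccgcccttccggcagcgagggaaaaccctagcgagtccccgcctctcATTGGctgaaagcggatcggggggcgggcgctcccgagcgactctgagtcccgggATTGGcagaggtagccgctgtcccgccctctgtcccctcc
Lss (chr10:76531355-76531654, plus strand): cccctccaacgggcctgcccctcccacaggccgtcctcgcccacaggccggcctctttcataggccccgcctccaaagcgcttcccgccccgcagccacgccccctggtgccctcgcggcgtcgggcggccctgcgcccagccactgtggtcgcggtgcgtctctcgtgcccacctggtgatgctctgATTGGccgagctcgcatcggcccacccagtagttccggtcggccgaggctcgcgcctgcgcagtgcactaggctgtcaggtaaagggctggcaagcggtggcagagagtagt
Hsd17b7 held 3 CCAAT matches, Hmgcs1 4, and Pmvk and Lss 1 each. These matches describe the letters of the window and were not tested as sites.

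Among the 6 regulators Srebf2 and Insig1 rose and Scap fell at 6 h in the scanner values, with a median log2 change of 0.52. In the table Insig1 alone was called. The scanner shares of all genes at 6 h were 10.2% higher and 15.9% lower. The table shares were 13.2% and 11.8%, so the single call there lies near them. Srebf2 encodes the factor that mainly drives sterol genes. Its scanner levels were 2.14, 2.16 and 2.16 at 0 h, 3.15, 3.11 and 3.26 at 6 h, 2.50, 2.35 and 2.60 at 12 h, and 2.29, 2.35 and 2.36 at 24 h. Table ratios of Srebf2 were 0.954, 1 and 1.04 at 0 h, 1.96, 1.69 and 2.07 at 6 h, 1.25, 1.32 and 1.31 at 12 h, and 0.769, 0.959 and 0.859 at 24 h. The arrays at 6 h stood above all others, and Srebf2 rose by 1.02 ± 0.063, at the border of 2-fold. The value was 1.00 with the slide as a block, 0.98 without 6 h replicate 3 and 0.95 after quantile normalization, none of which passed. The table gave 0.93 ± 0.093 at 6 h, not called. Srebf1, whose products drive fatty acid and sterol genes, was not called at any time, with changes at 6 h of 0.16 ± 0.044 in the scanner values and -0.49 ± 0.068 in the table.

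Insig1 encodes the retention protein of the SCAP complex and is itself a target of the Srebf factors. Scanner levels of Insig1 were -0.88, -1.65 and -1.84 at 0 h, 0.50, 0.36 and 0.50 at 6 h, -1.19, -1.34 and -1.18 at 12 h, and -1.66, -1.62 and -1.69 at 24 h. Its table ratios were 1, 0.953 and 1.1 at 0 h, 2.71, 2.65 and 2.49 at 6 h, 2.45, 2.2 and 2.33 at 12 h, and 2.02, 2.07 and 1.99 at 24 h. At 0 h replicate 1 lay above the other two arrays, but below all 3 at 6 h. Insig1 rose by 1.91 ± 0.2 in the scanner values and by 1.36 ± 0.065 in the table at 6 h, and in the table also by 1.19 ± 0.065 at 12 h. A second Insig1 probe passed at 12 h in the scanner values (1.10), where the probe used gave 0.22 ± 0.2. In the table at 24 h the probe used gave 1.00 ± 0.065, just under 2-fold and not called, and the second probe passed at 1.31.

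Insig2, its paralog, was called at 24 h in the table alone. Scanner levels of Insig2 were 0.72, 0.72 and 0.71 at 0 h, 0.86, 0.59 and 0.69 at 6 h, 0.41, 0.52 and 0.45 at 12 h, and 0.76, 0.80 and 0.76 at 24 h. The table ratios of Insig2 were 1, 0.998 and 1.09 at 0 h, 1.56, 1.46 and 1.44 at 6 h, 1.9, 1.97 and 1.81 at 12 h, and 2.11, 2.01 and 2.12 at 24 h. The table change at 24 h was 1.02 ± 0.057, and without 0 h replicate 1 or 2 it was 1.00 and was not called. The median over its probes gave 0.90, which was not called. In the scanner values the arrays at 24 h and 0 h differed by 0.06 ± 0.063.

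Scap, the carrier of the Srebf factors, was lower at both 6 and 12 h. Its scanner levels were 3.81, 3.80 and 3.78 at 0 h, 2.82, 2.71 and 2.70 at 6 h, 2.74, 2.81 and 2.76 at 12 h, and 3.80, 3.84 and 3.84 at 24 h. The table showed ratios of 1, 0.939 and 1.01 at 0 h, 0.687, 0.656 and 0.607 at 6 h, 0.625, 0.639 and 0.575 at 12 h, and 0.691, 0.693 and 0.701 at 24 h. The 6 arrays at 6 and 12 h lay below all 6 at 0 and 24 h, while in the table every later column was below those at 0 h. Scap fell by 1.05 ± 0.041 at 6 h and by 1.02 ± 0.041 at 12 h in the scanner values, and with the slide as a block the values were -0.98 and -0.91, neither called. The table gave -0.60 ± 0.061 and -0.68 ± 0.061, not called.

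Stard4, a cytosolic carrier of cholesterol, depended on the probe. The probe used had scanner levels of 1.67, 1.67 and 1.60 at 0 h, 2.54, 2.49 and 2.57 at 6 h, 0.49, 0.50 and 0.48 at 12 h, and 1.5, 1.47 and 1.48 at 24 h. Its ratios in the table were 0.888, 1.03 and 1 at 0 h, 1.32, 1.24 and 1.23 at 6 h, 0.81, 0.769 and 0.662 at 12 h, and 0.563, 0.605 and 0.609 at 24 h. By this probe the change was 0.88 ± 0.036 at 6 h, not called, and Stard4 fell by 1.16 ± 0.036 at 12 h. The other 2 probes of Stard4 rose by 1.65 and 1.68 at 6 h and gave 0.04 each at 12 h, so the fall at 12 h stood on 1 probe of 3.

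None of the 8 fatty acid enzymes was called higher at 6 or 12 h in either source. At 6 h in the scanner values 2 of 8 fell and none of the others was called, with a median log2 change of -0.08. That count lies near the 15.9% of all genes called lower. At 12 h 6 of 8 fell, against 16.9% of all genes, with a median of -1.49. At an unadjusted p under 0.05 the scanner values had 3 higher and 4 lower at 6 h, and 1 higher and 6 lower at 12 h. The value table had 0 of 8 called at 6, 12 or 24 h by limma, against 25%, 27.8% and 26.3% of all genes. Its medians were -0.60, -0.05 and 0.20. At an unadjusted p under 0.05 the table had 0 higher and 6 lower at 6 h, 3 higher and 3 lower at 12 h, and 4 higher and 3 lower at 24 h. The direction at 12 h thus rests on the scanner values alone.

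Fasn is the synthase that makes palmitate. Its scanner levels were 4.48, 4.45 and 4.45 at 0 h, 5.23, 5.20 and 5.29 at 6 h, 3.14, 3.22 and 3.09 at 12 h, and 4.55, 4.65 and 4.68 at 24 h. The ratios of Fasn in the table were 1.11, 1 and 0.977 at 0 h, 0.692, 0.56 and 0.483 at 6 h, 0.679, 0.677 and 0.61 at 12 h, and 0.678, 0.674 and 0.689 at 24 h. Scanner arrays at 6 h were the highest and those at 12 h the lowest, whereas in the table all later columns were below those at 0 h. Fasn fell by 1.31 ± 0.049 at 12 h in the scanner values, and its change at 6 h, 0.78 ± 0.049, was not called. The table gave -0.84 ± 0.11 at 6 h and -0.65 ± 0.11 at 12 h.

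Scd1 and Scd2 are stearoyl-CoA desaturases, which make monounsaturated fatty acids. Scanner levels of Scd1 were 0.67, 0.68 and 0.60 at 0 h, -0.54, -1.25 and -0.42 at 6 h, -0.99, -1.13 and -0.97 at 12 h, and 0.59, 0.66 and 0.58 at 24 h. Its table ratios were 1, 0.958 and 1.07 at 0 h, 0.809, 0.745 and 0.755 at 6 h, 1.15, 1.13 and 1.15 at 12 h, and 1.53, 1.61 and 1.57 at 24 h. At 6 h replicate 2 of Scd1 lay below the other two, and all arrays at 6 and 12 h were below those at 0 h. Scd1 fell by 1.39 ± 0.17 at 6 h and by 1.68 ± 0.17 at 12 h in the scanner values, while in the table its ratios at 12 and 24 h were above those at 0 h without a call.

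Scd2 had the largest fall of the list. It had scanner levels of 3.84, 3.83 and 3.86 at 0 h, 3.59, 3.26 and 3.53 at 6 h, 1.06, 0.89 and 1.00 at 12 h, and 3.81, 3.82 and 3.76 at 24 h. Table ratios of Scd2 were 1, 1 and 1.13 at 0 h, 0.649, 0.536 and 0.573 at 6 h, 0.967, 0.947 and 0.94 at 12 h, and 1.2, 1.2 and 1.19 at 24 h. The 3 arrays at 12 h lay far below the other 9. Scd2 fell 7.27-fold at 12 h in the scanner values (-2.86 ± 0.08 on the log2 scale, adjusted p = 3.51e-10), and the table gave -0.13 ± 0.073 at 12 h and -0.83 ± 0.073 at 6 h, not called.

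Elovl6 lengthens palmitate. The scanner levels of Elovl6 were 0.08, 0.16 and 0.04 at 0 h, -0.30, -0.34 and -0.26 at 6 h, -2.39, -2.05 and -2.03 at 12 h, and 0.07, 0.11 and 0.13 at 24 h. Its ratios were 1, 0.97 and 1.09 at 0 h, 0.56, 0.478 and 0.515 at 6 h, 0.633, 0.732 and 0.619 at 12 h, and 0.65, 0.695 and 0.698 at 24 h in the table. Elovl6 fell by 2.25 ± 0.087 at 12 h in the scanner values, and in the table its change came closest to 2-fold at 6 h, -0.98 ± 0.083. Every later table column of Elovl6 was below those at 0 h.

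Fads1 and Fads2 desaturate the polyunsaturated fatty acids. Fads1 had scanner levels of 1.37, 1.30 and 1.32 at 0 h, -0.24, -0.16 and -0.07 at 6 h, -1.61, -1.41 and -1.28 at 12 h, and 1.38, 1.42 and 1.43 at 24 h. Ratios of Fads1 in the table were 1, 0.932 and 1.06 at 0 h, 0.905, 0.846 and 0.805 at 6 h, 1.27, 1.24 and 1.26 at 12 h, and 1.5, 1.54 and 1.56 at 24 h. Fads1 fell in steps in the scanner values, by 1.49 ± 0.078 at 6 h and by 2.76 ± 0.078 at 12 h, with no overlap among 0, 6 and 12 h. Fads2 had scanner levels of 0.29, 0.24 and 0.27 at 0 h, 0.51, 0.37 and 0.58 at 6 h, -0.93, -1.01 and -0.84 at 12 h, and 0.22, 0.27 and 0.35 at 24 h. Its table ratios were 1, 0.937 and 1.04 at 0 h, 0.977, 0.891 and 0.859 at 6 h, 1.26, 1.17 and 1.18 at 12 h, and 1.15, 1.2 and 1.13 at 24 h. Fads2 fell by 1.19 ± 0.064 at 12 h in the scanner values, and with the normexp background the change was -0.91 and was not called. The table changes of Fads1 and Fads2 at 12 h were 0.34 ± 0.059 and 0.28 ± 0.063, above 0 and not called.

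Acly, which makes cytosolic acetyl-CoA from citrate, and Acaca, which carboxylates it, were called at no time in either source. Acly stood at 0.45 ± 0.038 in the scanner values and -0.82 ± 0.052 in the table at 6 h, on opposite sides of 0. Acaca was dim, well above background on 11 of 12 arrays, and its SE was 0.30 at each time in the scanner values.

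**Figure D3:**
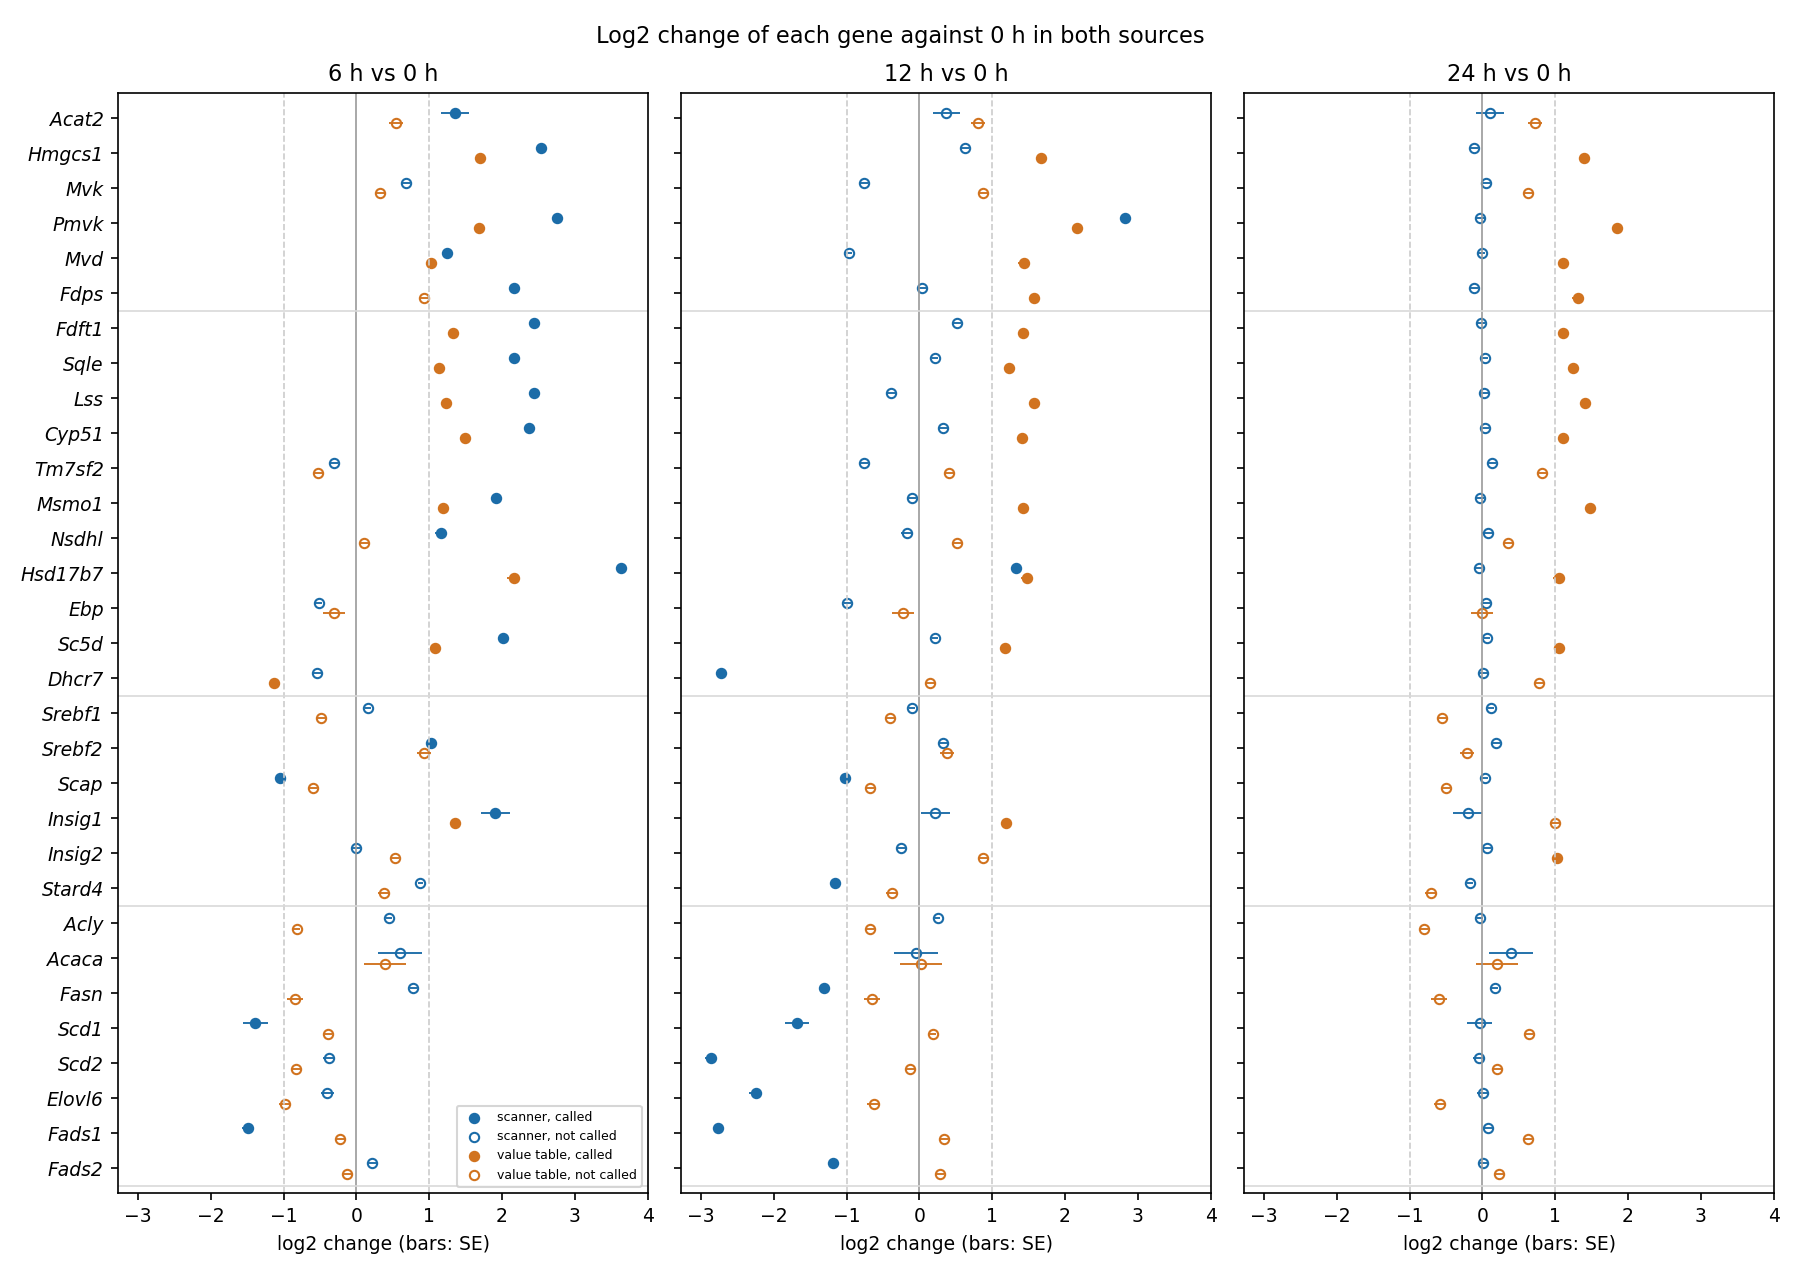
Log2 change of each of the 31 genes (rows, grouped by role) at 6, 12 and 24 h against 0 h, in the scanner values (blue) and the value table (orange). Filled points were called, open points were not, bars are the SE of the fit and dashed lines mark a 2-fold change. At 6 h most sterol enzymes lie to the right of 0 in both sources. At 12 h the sources part, and at 24 h only value table points are filled.

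The sources called 11 genes higher in common at 6 h, all of them sterol enzymes or Insig1, and 4 more genes were called higher in the scanner values alone. Of all genes 6.61% were called higher in both sources at 6 h and 3.35% in the scanner values alone. At 12 h they shared 2 calls, Pmvk and Hsd17b7, while 10 of the 31 genes were called higher in the table alone and 9 lower in the scanner values alone. Of all genes 6.4% were called higher in both at 12 h, 8.44% higher in the table alone and 9.7% lower in the scanner values alone, so the sources also differed outside the list. In the scanner values 13 genes were called higher only at 6 h and 2 higher at 6 and 12 h. A further 6 were lower only at 12 h, 3 were lower at 6 and 12 h, and 7 were called at no time. The table had 10 genes called higher at all 3 times, and 17 were called at no time. The shares of all genes with these patterns were not counted, so the patterns cannot be read as particular to the list. The difference between the sources was not tested.

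Between 6 and 12 h the scanner values turned downward. At 12 h against 6 h 20 of 31 genes were called lower and 0 higher, where 2.1% of all genes were called lower and 4.89% higher (6.99% in either direction), with a median log2 change of -1.69 over the list and 0.03 over all genes. At an unadjusted p under 0.05 there were 27 lower and 0 higher. The fall was largest for Lss (-2.82), Scd2 (-2.48) and Hsd17b7 (-2.31), and it was also called for 9 of 11 squalene and sterol enzymes and 5 of 8 fatty acid enzymes. With the slide as a block, which for these times equals the comparison within the second slide, 22 genes were called lower. In the value table Dhcr7 alone was called, higher, where 5.8% of all genes were called, and the list's median was 0.23. For this comparison the sources called 0.31% of all genes higher in common, 0.103% lower in common and 0.826% in opposite directions.

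At 24 h against 12 h the scanner values called 9 genes higher and 2 lower, against 18.2% and 12.9% of all genes (31% in either direction). Those called lower were Pmvk and Hsd17b7. The value table called 0 of 31 by limma, where 4.57% of all genes were called (1.4% higher and 3.17% lower), with 7 higher and 15 lower at an unadjusted p under 0.05. Beside this, 6 of the 7 measured neutrophil markers were called lower at 24 h than at 12 h in the table, and 0 by limma in the scanner values, where 3 were higher and 4 lower at an unadjusted p under 0.05.

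Each slide held 2 groups, so the comparison of neighbouring times could be made within a slide. Within the first slide, where 6 h replicate 1 stands against the 3 arrays at 0 h, the change of Hsd17b7 was 3.65 ± 0.069, that of Pmvk 2.86 ± 0.079 and that of Hmgcs1 2.55 ± 0.075 (SE, with the slide as a block). That comparison has a single array at 6 h, and its SE comes from the spread of the arrays on all slides, assumed to hold for that array too. The number called at 6 h was then 16, 14 higher and 2 lower, since Srebf2 and Scap no longer passed, against 25.9% of all genes under that block. With the same block 10 of the 31 genes were called at 12 h, near the 30% of all genes, and 0 by limma at 24 h, against 0.125% of all genes.

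**Figure D4:**
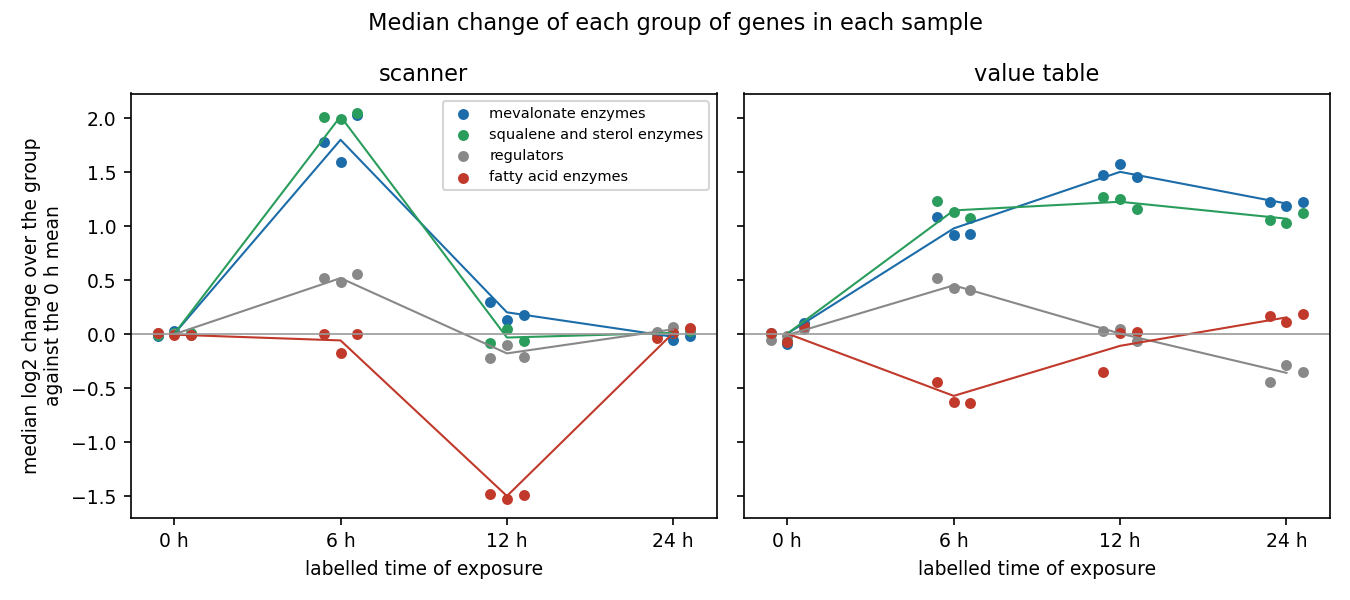
Median log2 change against the 0 h mean (y axis) over the genes of each role in every sample (points, 3 per time) at the labelled times (x axis, evenly spaced), with lines through the means of the times. In the scanner values the mevalonate enzymes lie at 1.59 to 2.03 at 6 h and the fatty acid enzymes at -1.52 to -1.48 at 12 h. In the value table the mevalonate enzymes lie at 0.92 to 1.09 at 6 h.

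Other genes of the pathway, from a second list, were called in both directions. Of 30 such genes 26 were tested, and 8 were called higher and 2 lower at 6 h in the scanner values, and 5 higher and 5 lower at 12 h, where the scaling over probes above background on all arrays gave 3 higher and 7 lower. The shares of all genes were 10.2% higher and 15.9% lower at 6 h and 13.7% and 16.9% at 12 h, so the counts at 12 h lie near those shares. By the table there were 7 higher and 3 lower at 6 h, and 8 higher and 3 lower at 12 h, against 13.2% and 11.8% of all genes at 6 h and 15.7% and 12.1% at 12 h. Me1, the malic enzyme that supplies NADPH for lipid synthesis, had scanner levels of -2.21, -2.40 and -2.17 at 0 h, 0.83, 0.78 and 0.80 at 6 h, -0.75, -0.59 and -0.75 at 12 h, and -2.19, -2.13 and -2.15 at 24 h. The table held ratios of 0.662, 1.05 and 1 at 0 h, 54.5, 49.1 and 45.1 at 6 h, 45.6, 46.9 and 44.8 at 12 h, and 27.7, 29.3 and 31.3 at 24 h. Me1 rose by 3.06 ± 0.067 at 6 h in the scanner values and by 5.80 ± 0.15 in the table, so the sizes differ between sources. The elongases Elovl7 and Elovl5 fell. Elovl7 fell by 2.22 ± 0.071 and 3.20 ± 0.071 at 6 and 12 h in the scanner values and by 2.37 ± 0.085 and 2.55 ± 0.085 in the table. Elovl5 fell at 6 h by 1.26 ± 0.045 in the scanner values and by 1.03 ± 0.061 in the table. At 12 h it fell by 1.94 ± 0.045 in the scanner values, where the table gave -0.71 ± 0.061, not called. Lpin1, a phosphatase of triglyceride synthesis, fell at 12 h by 2.86 ± 0.067 in the scanner values and by 1.15 ± 0.078 in the table.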

How the data were processed

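RNA of 12 samples (4 times, 3 samples each) was hybridised to 1-colour arrays. Spot intensity, background-corrected processed signal, was, per the file headers, made by Agilent Feature Extraction, which the submitters' processing notes give as version 9.1.3.1. The deposited value table holds linear ratios, with a normalization that is not stated by labels or headers. The names of probes come from the GRCm38.p6 gene table through their accessions (22937 of 23837 mRNA accession probes matched).

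Here the log2 of the deposited processed signal minus the log2 of its 75th percentile on each array was taken after leaving out 1639 of 45018 spots as controls and 732 outlier spots in all. Most of these outlier spots, 628, lay on the array of 6 h replicate 2. Probes well above background on all arrays of a group were kept (23492 of 41174), and each gene was read from its kept probe with the highest mean. The log2 of the authors' ratios of the same probes was the second source. In limma 3.58.1 (R 4.3.3) all 4 times were fitted together (8 residual degrees of freedom), and p-values were Benjamini-Hochberg adjusted over 18403 genes. Calls need 2-fold change or more beside an adjusted p below 0.05. The fit was tested on simulated data.

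The members and lists were chosen with earlier results of these data known. All members are named, with values in all samples for those called against 0 h in either source. Of the other lists the 5 genes with the largest scanner change at 6 or 12 h are named, except 1 that is not reported here. Genes with several probes can disagree, and calls differed between probes for 3 genes at 6 h and 2 at 12 h in the scanner values, none in opposite directions. Nothing says that the samples of a time came from separate cultures, so p-values measure the spread among these samples, and precision is limited by how many arrays there are. Slide and scan could not be separated. Alternatives were normexp background (offset 50, on the median spot signal), quantile normalization, and other scalings, filters and probe rules. The normexp step used the median because the scanner files held no mean signal column. Further alternatives were slide and replicate blocks, no minimum fold, each sample left out and, added after seeing the data, all samples at 24 h left out. Figures were drawn with matplotlib 3.10.9.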

Additional observations from a re-analysis of the deposited data

How the results depend on the processing

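The numbers of genes called kept within 1.5 times under most alternatives. With no minimum fold the scanner values called 29, 24 and 1 of the 31 genes at 6, 12 and 24 h against 0 h and 26 at 24 h against 12 h, and the value table called 27, 27 and 28 against 0 h, 20 at 12 h against 6 h and 19 at 24 h against 12 h. That rule called 71.8%, 75.6% and 3.58% of all genes against 0 h in the scanner values and 71.2%, 73.9% and 72.5% in the table, so the share of the list at 12 h in the scanner values was near that of all genes. At 24 h against 12 h it called 75.2% of all genes in the scanner values and 43.7% in the table. At 12 h against 6 h it called 47.9% of all genes in the table. For the other pathway genes that rule gave 24 and 22 in the scanner values and 22 and 24 in the table at 6 and 12 h. The table in place of the scanner values gave 12 at 24 h against 0 h, 1 at 12 h against 6 h and 0 at 24 h against 12 h. After quantile normalization the table called 6, 4 and 3 genes at 6, 12 and 24 h, 0 at 12 h against 6 h, and 7 other pathway genes at 12 h. With centred columns it called 6 at 24 h, and with the slide as a block 2 at 12 h against 6 h. The cause was not tested.

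Leaving out each sample in turn gave 17 to 18, 11 to 12 and 0 to 0 genes at 6, 12 and 24 h against 0 h, 20 to 21 at 12 h against 6 h and 11 to 12 at 24 h against 12 h in the scanner values. In the table it gave 12 to 13, 12 to 12 and 11 to 13 against 0 h, 1 to 1 and 0 to 0. The other pathway genes gave 10 to 10 at both times in the scanner values, and 9 to 11 and 11 to 11 in the table. With the replicate number as a block 18, 11 and 0 genes were called in the scanner values and 12, 12 and 12 in the table, and no count of calls changed. Same-numbered samples had correlated deviations (r over 0.1) in 2 of 18 pairs of scanner arrays and 1 of 18 pairs of table columns. Differently numbered samples had them in 0 of 36 and 2 of 36 pairs. With 3 samples at each time these counts cannot tell whether the numbers pair the samples.

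The scanner change of Stard4 at 12 h turned to 0.04 with the median over probes. For the other pathway genes at 12 h the scanner split of 5 higher and 5 lower became 4 and 6 with normexp and 3 and 6 after quantile normalization, and the table split of 8 and 3 became 5 and 3 with centred columns and 4 and 3 after quantile normalization. At 6 h the table split of 7 and 3 became 6 and 4 with centred columns and 4 and 3 after quantile normalization. Beyond these, 116 values of single genes changed sign in a setting without passing in either (the largest at 0.99 on the log2 scale). Scaling over probes above background on all arrays put the scanner median of all genes at 12 h at -0.17, against -0.03. Acat2 at 6 h (0.92) lost its call with normexp in the scanner values. Acaca was dim, which limits its precision.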

Other observations

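Genes of sterol export and of the liver X receptors, whose products dispose of excess sterol, formed a second fixed list of 8 genes, all tested. In the scanner values 1 was called higher and 1 lower at 6 h, and 4 higher and 0 lower at 12 h. Of all genes 10.2% were called higher and 15.9% lower at 6 h, and 13.7% and 16.9% at 12 h, so the counts at 6 h lie near those shares. At 24 h limma called 0 of the 8 in the scanner values, with a median log2 change of 0.07 and 1 higher and 0 lower at an unadjusted p under 0.05. The value table had 3 called higher at 6 h, 4 at 12 h and 3 at 24 h, and 0 lower at each, against 13.2%, 15.7% and 13.3% of all genes called higher. Ch25h, which makes an oxysterol that restrains sterol synthesis, rose by 4.60 ± 0.057 (SE) at 6 h and by 6.64 ± 0.057 at 12 h on the log2 scale in the scanner values (limma, n = 3 at each time). In the table Ch25h rose by 2.18 ± 0.14 at 6 h and by 1.13 ± 0.14 at 12 h.

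Nr1h3, which encodes a liver X receptor, rose by 1.22 ± 0.055 at 12 h in the scanner values and by 3.52 ± 0.055 in the table. Mylip, a target gene of these receptors, rose by 1.35 ± 0.069 at 12 h in the scanner values and by 2.08 ± 0.075 in the table. Abca1, a cholesterol exporter, rose by 1.01 ± 0.062 at 12 h in the scanner values and by 1.03 ± 0.094 in the table. Abcg1, another exporter, fell by 2.37 ± 0.046 at 6 h in the scanner values, where the table gave -0.83 ± 0.077, not called.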
